A study of Mus musculus with 8 samples.

Results

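The genes of the MHC class II pathway and their transactivator were followed in RNA from mouse cells, labelled as neutrophils, that had been sorted from tumours by their surface level of ICAM1. The group holds 10 genes, chosen by symbol, of 25572 gene identifiers in the deposited table. They are the classical chains H2-Aa, H2-Ab1 and H2-Eb1, the invariant chain Cd74, the peptide editors H2-DMa, H2-DMb1 and H2-DMb2, the editor's inhibitors H2-Oa and H2-Ob, and Ciita. Each symbol matched 1 identifier. The cells are labelled as tumour-infiltrating neutrophils of C57/B6 mice that carried PyMT-N tumours. Ly6g and the summed cell type markers of the ICAM1-high libraries go against this label (below). No further genotype, age or treatment is given in the labels. There were 4 libraries of ICAM1-high cells (CD54-positive in the sample titles) and 4 of ICAM1-low cells (CD54-negative), numbered 1, 2, 3 and 5 in each group. Each was made from 150 pg of total RNA. ICAM1, or CD54, is an adhesion molecule that binds beta-2 integrins.

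MHC class II molecules carry peptides from endocytosed proteins to the cell surface, where CD4 T cells read them. An alpha and a beta chain are assembled on the invariant chain CD74, whose CLIP fragment blocks the groove until the editor H2-DM exchanges it for peptide, and H2-O restrains H2-DM. Transcription of these genes depends on CIITA, which does not bind DNA itself but is held at a shared promoter module by the RFX, CREB and NFY factors on the X and Y boxes. Dendritic cells, B cells and macrophages are the usual carriers of class II, while resting neutrophils have little. In the H2-b haplotype of C57BL/6 mice the alpha chain gene H2-Ea is defective, so that the product of H2-Eb1 has no partner chain. H2-Ea was not analysed here.

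The promoter module is shown first because 8 of the 10 genes were higher together in ICAM1-high libraries. RefSeq promoter windows (build GRCm38.p6, while the authors' build was GRCm39) matched 7 of the 10 genes, with 2 windows for H2-DMa. In the 250 bases before each start, 3 words were searched on both strands. They were CNNATGATG for the core of the X box (with N for any base), TGACGTCA for the cyclic AMP response element or CRE, and TGATTGG for the Y box. The Y box word was found on the gene's strand in 6 genes, and in 5 of these an X box or CRE word lay before it. The lines below give the stretch around the Y box of each of the 6 genes, 5′ to 3′ on the gene's strand, with the matched words in capitals.
H2-Aa: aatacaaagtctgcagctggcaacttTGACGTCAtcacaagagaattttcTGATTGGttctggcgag
H2-Eb1: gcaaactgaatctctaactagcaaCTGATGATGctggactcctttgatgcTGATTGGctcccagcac
H2-DMb1: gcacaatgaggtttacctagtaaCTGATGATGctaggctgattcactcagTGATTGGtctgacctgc
H2-DMb2: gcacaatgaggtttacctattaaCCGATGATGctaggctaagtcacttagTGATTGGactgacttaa
H2-Ob: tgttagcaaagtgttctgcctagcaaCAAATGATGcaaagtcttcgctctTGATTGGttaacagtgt
H2-Oa: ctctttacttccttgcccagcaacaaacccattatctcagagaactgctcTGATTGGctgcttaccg
These stretches lie at chr17:34287857-34287923 on the minus strand for H2-Aa and, on the plus strand, at chr17:34305756-34305822 for H2-Eb1, chr17:34153078-34153144 for H2-DMb1, chr17:34145107-34145173 for H2-DMb2, chr17:34238796-34238862 for H2-Ob and chr17:34092284-34092350 for H2-Oa. They lie just upstream of the annotated starts.

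From the end of the X box or CRE word to the Y box word there were 16 bases in H2-Aa, 17 in H2-Eb1, 18 in H2-DMb1 and in H2-DMb2, and 15 in H2-Ob. No word overlapped another. Of 32851 windows of the same length over all genes, 2.31% held the X box word, 1.55% the CRE word and 7.23% the Y box word, and 0.283% held the Y box word with either of the others. H2-Oa held the Y box word alone, and the windows of H2-DMa held none of the 3 words. A missing word, as also the X box word in H2-Aa, says only that these letters are not in the window. It does not show that the box itself is missing. H2-DMa, without the words, was among the genes that rose below. H2-Ob, with them, did not pass the test, and its difference was poorly determined (below). Whether the words bear on the levels was not tested. The spacing is drawn in the map of matches upstream of each gene.

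**Figure D1:**
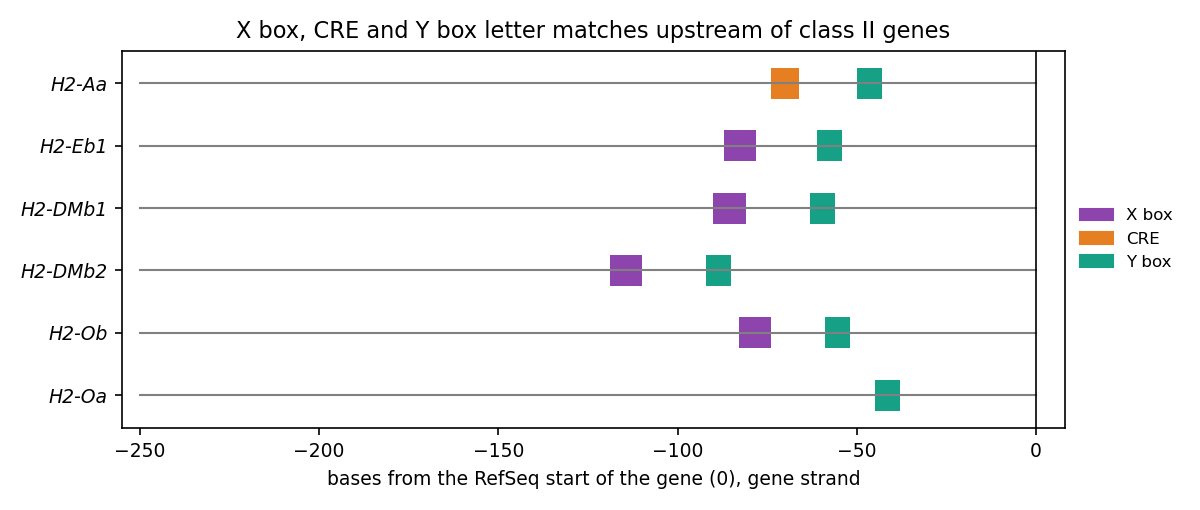
Position of the X box, CRE and Y box word matches upstream of 6 class II genes, in bases from the RefSeq start on the gene's strand (x axis), with 1 gene per line. The Y box word follows the X box or CRE word by 15 to 18 bases in 5 genes, and H2-Oa has the Y box word alone.

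Library totals ran from 15940328 to 21825096 estimated counts, and 3 counts, taken as the limit of detection, were worth 0.121 to 0.263 CPM; this limit covers counting error only. CPM are counts scaled to a common library total, with TMM factors between libraries. Values by library are given below in the order of replicates 1, 2, 3 and 5. Icam1 mRNA was 42.4 to 122 CPM in ICAM1-high libraries and 4.31 to 18.7 CPM in ICAM1-low replicates 1, 2 and 3. In ICAM1-low replicate 5 it was 138 CPM, above every ICAM1-high library. The label records surface ICAM1, which mRNA does not measure, so the mRNA value alone does not contradict it. The TMM factor of ICAM1-low replicate 5 was the lowest of the 8 libraries, at 0.718, which raises every CPM there. Ly6g and the summed markers of the ICAM1-high libraries went against the labelled cell type. Ly6g, which defines mouse neutrophils, was at 25.9 to 41.1 CPM in ICAM1-low and 0.095 to 3.99 CPM in ICAM1-high libraries, the lowest of which is under the limit of detection. In each ICAM1-high library the 14 macrophage markers summed to more than the 13 neutrophil markers (8837 against 2990, 5697 against 4408, 5859 against 2173 and 16300 against 1504 CPM). In each ICAM1-low library the neutrophil sum was the higher, also in replicate 5 (31100 against 1174 CPM). Not every neutrophil marker was scarce in ICAM1-high libraries. Mmp9 was at 617 to 1526 CPM there and 1315 to 3495 CPM in ICAM1-low libraries, with overlap. Csf3r was at 381 to 730 against 1001 to 9450 CPM. The sums depend on the genes listed, and a mixture of cell types cannot be told apart from a wrong label. The labels name no animal for any library, and the p-values below therefore speak of the spread between these libraries, which may be technical.

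Class II genes were higher in ICAM1-high than in ICAM1-low cells, by 11.1-fold for H2-Aa to 19.5-fold for H2-DMb2 and slightly more for Ciita among those that passed the test. Of the 10 genes 8 rose and none fell (quasi-likelihood test of edgeR with a Benjamini-Hochberg adjusted p under 0.05, over 13575 genes tested), and the 2 that did not pass were H2-Oa and H2-Ob. Of all genes tested, 1.22% rose and 0.273% fell by the same rule. All 10 genes passed the filter on low counts. Their median log2 fold change was 3.70, against -0.065 over all genes tested. In the same 8 genes every ICAM1-high library lay above every ICAM1-low library, which held for 7.51% of all genes tested. The 10 genes together made up 3464 to 7189 CPM in ICAM1-high and 241 to 572 CPM in ICAM1-low libraries. In RNA from a sorted bulk population, a larger number of class II-expressing cells and more class II RNA per cell cannot be told apart. The summed macrophage markers were higher in the same libraries (5697 to 16300 against 816 to 1174 CPM), and their part in the class II result was not tested.

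The number of genes called depended on which library was left out, although all 8 kept a positive sign. It was 5 without any single ICAM1-high library (H2-Aa, H2-Ab1, H2-Eb1, H2-DMa and Cd74 each time), and 4 without ICAM1-low replicate 2 (the same genes apart from Cd74). Without ICAM1-low replicate 1 it was 0, with edgeR adjusted p from 0.0521 to 0.0791 for the 8 genes and log2 fold changes from 3.32 to 4.61. There, 8 members had an unadjusted p under 0.05, as in the fit to all libraries, where this held for 8 members and for 7.96% of all genes on the higher side. Without ICAM1-low replicate 1, 4 genes in all passed. It was 8 when ICAM1-low replicate 3, ICAM1-low replicate 5 or both libraries numbered 5 were left out.

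**Figure D2:**
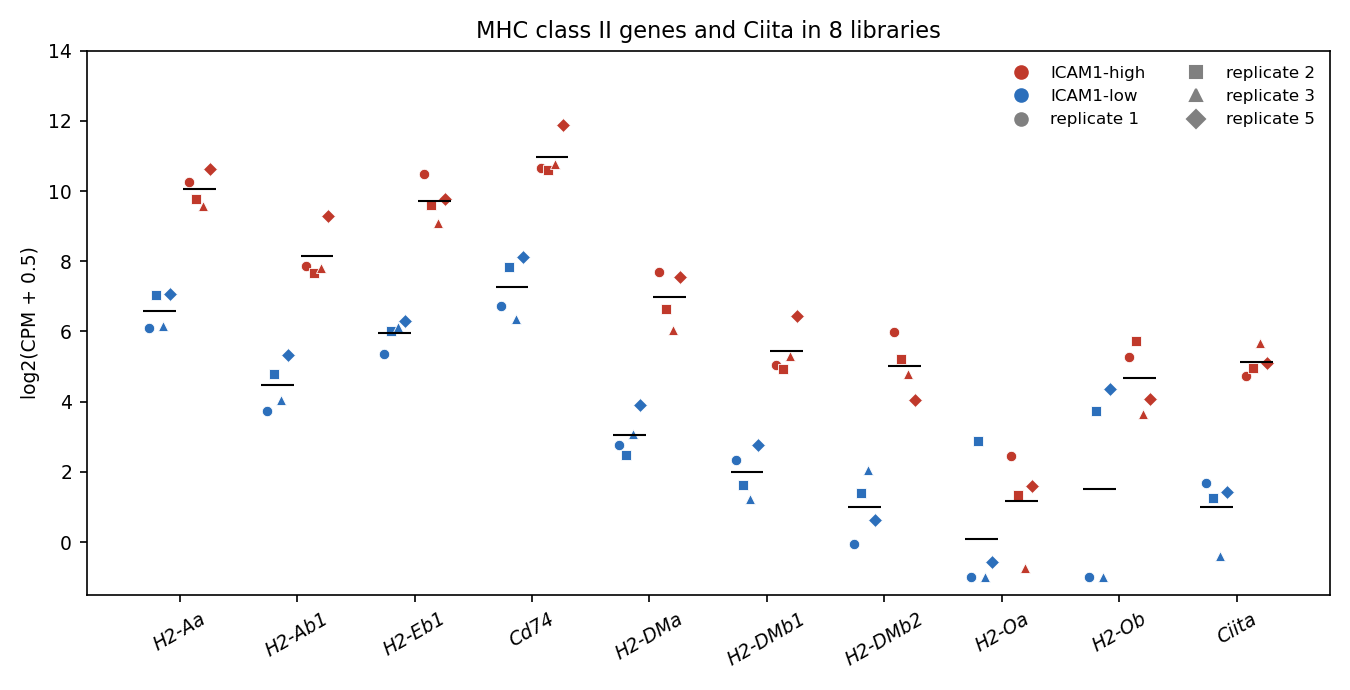
Level of each of the 10 genes as log2(CPM + 0.5) (y axis) in the 4 ICAM1-low (blue) and 4 ICAM1-high (red) libraries, with marker shape for the replicate number and a black line at the mean of each group. The groups are apart in 8 genes and overlap in H2-Oa and H2-Ob.

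The classical chains form the peptide-binding molecule itself. H2-Aa (ENSMUSG00000036594), the I-A alpha chain, was at 1226, 871, 769 and 1595 CPM in the ICAM1-high libraries. In the ICAM1-low libraries it was at 68.3, 130, 71.1 and 134 CPM. The lowest ICAM1-high library was thus well above the highest ICAM1-low library, and the same-numbered libraries differed by 6.68-fold to 17.9-fold. The means were 1115 ± 375 and 101 ± 36.2 CPM (SD, n = 4 each), or 3.47 ± 0.50 log2 units of difference (SE) with an adjusted p of 0.0119 by edgeR. This was the lowest estimate among the 8 genes that rose, though their SEs overlap.

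H2-Ab1 (ENSMUSG00000073421), the I-A beta chain, was at 235, 202, 223 and 622 CPM in the ICAM1-high libraries. The ICAM1-low values were 12.8, 26.9, 16.1 and 39.6 CPM. ICAM1-high replicate 5 stood above its 3 fellows, which were close to each other, and in each group the library numbered 5 was the highest. The means were 321 ± 202 and 23.8 ± 12.1 CPM (SD, n = 4 each), or 3.75 ± 0.59 log2 units of difference (SE) with an adjusted p of 0.0146 by edgeR. Without both libraries numbered 5 the log2 fold change was 3.58.

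H2-Eb1 (ENSMUSG00000060586), the I-E beta chain, had the smallest p of the 10 genes. It was at 1429, 773, 543 and 870 CPM in the ICAM1-high libraries, and at 40.7, 64.3, 69.6 and 78.6 CPM in the ICAM1-low libraries. The highest ICAM1-high and the lowest ICAM1-low library carried the same number, 1, and that pair differed by 35.1-fold, against 7.80-fold to 12.0-fold in the others. The fractions differed by 3.84 ± 0.50 log2 units (SE, n = 4 against 4) with an adjusted p of 0.00992 by edgeR. The means were 904 ± 376 and 63.3 ± 16.2 CPM (SD).

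Cd74 (ENSMUSG00000024610), the chaperone of the newly made chains, was the most abundant of the 10 genes in CPM. It was at 1606, 1562, 1734 and 3760 CPM in the ICAM1-high libraries, and at 106, 228, 82.2 and 276 CPM in the ICAM1-low libraries. Replicates 1, 2 and 3 of the ICAM1-high cells lay within a narrow range and replicate 5 was well above them. The means were 2166 ± 1065 and 173 ± 93.9 CPM (SD, n = 4 each), or 3.65 ± 0.60 log2 units of difference (SE) with an adjusted p of 0.0172 by edgeR, and 3.58 without both libraries numbered 5.

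The 3 genes of the editor H2-DM rose by 12.3-fold to 19.5-fold. H2-DMa (ENSMUSG00000037649), its alpha chain, was at 208, 99.6, 65.3 and 187 CPM in the ICAM1-high libraries and at 6.25, 5.04, 7.97 and 14.4 CPM in the ICAM1-low libraries, or 4.06 ± 0.58 log2 units of difference (SE, n = 4 against 4) with an adjusted p of 0.0119 by edgeR. Replicates 1 and 5 of the ICAM1-high cells were the high ones, and no ICAM1-low library came near the lowest ICAM1-high value.

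H2-DMb1 (ENSMUSG00000079547) and H2-DMb2 (ENSMUSG00000037548) encode alternative beta chains and are close paralogs, so the division of reads between them is uncertain. H2-DMb1 was at 32.7, 30.1, 39.1 and 85.9 CPM in the ICAM1-high libraries and at 4.52, 2.59, 1.83 and 6.31 CPM in the ICAM1-low libraries (log2 difference 3.62 ± 0.66, SE; edgeR adjusted p = 0.0258). H2-DMb2 was at 63.0, 36.6, 27.1 and 15.9 CPM in the ICAM1-high libraries and at 0.458, 2.15, 3.63 and 1.06 CPM in the ICAM1-low libraries (log2 difference 4.29 ± 0.82, SE; edgeR adjusted p = 0.033). Among ICAM1-high libraries replicate 5 was thus the highest for H2-DMb1 and the lowest for H2-DMb2. The estimated counts of H2-DMb2 in ICAM1-low replicate 1 were 8.94 in all, so the 138-fold difference in that pair rests on very few reads. Counted as 1 feature, an alternative chosen after seeing the data, the paralogs differed by 3.87 log2 units (edgeR adjusted p = 0.00882).

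The inhibitor H2-O, which is known from B cells and thymic epithelium, behaved less uniformly. H2-Oa (ENSMUSG00000024334) was at 4.99, 2.01, 0.0966 and 2.54 CPM in the ICAM1-high libraries, and at 0, 6.86, 0 and 0.175 CPM in the ICAM1-low libraries. The highest of all 8 values belonged to ICAM1-low replicate 2, and the values of ICAM1-high replicate 3 and ICAM1-low replicate 5 were 2 counts each, under the limit of detection. The fractions differed by 0.45 ± 1.78 log2 units (SE, n = 4 against 4) with an adjusted p of 0.925 by edgeR. The difference was 5.42 without ICAM1-low replicate 2 (adjusted p = 0.245) and -0.25 without ICAM1-high replicate 1 (adjusted p = 0.974).

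H2-Ob (ENSMUSG00000041538) was at 38.6, 52.2, 12.0 and 16.4 CPM in the ICAM1-high libraries, and at 0, 12.7, 0 and 19.9 CPM in the ICAM1-low libraries. It was listed at 0 in the same ICAM1-low libraries as H2-Oa, replicates 1 and 3, and in the libraries numbered 5 the ICAM1-low value was the higher. The fractions differed by 1.87 ± 1.53 log2 units (SE, n = 4 against 4) with an adjusted p of 0.568 by edgeR. These SEs compare with 0.50 to 0.82 for the 8 genes that rose, so the p-values do not show that H2-Oa and H2-Ob did not change.

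Ciita (ENSMUSG00000022504), the transactivator, had the highest estimated fold change of the 10, within an SE of that of H2-DMb2. It was at 26.2, 30.9, 50.7 and 34.0 CPM in the ICAM1-high libraries, and at 2.71, 1.897, 0.266 and 2.19 CPM in the ICAM1-low libraries. Its spread among ICAM1-high libraries was the narrowest of the 10 genes, with a coefficient of variation of 30.1%, and ICAM1-high replicate 3, which was the lowest for H2-Aa, H2-Eb1 and H2-DMa, was the highest for Ciita. The fractions differed by 4.32 ± 0.78 log2 units (SE, n = 4 against 4) with an adjusted p of 0.0258 by edgeR. ICAM1-low replicate 3 held 5 counts of Ciita, so the 190-fold difference in that pair is poorly determined, and the other pairs differed by 9.65-fold to 16.3-fold.

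Divided by the deposited gene length, the levels fell into the same leading order in both fractions: Cd74, H2-Aa, H2-Eb1, H2-Ab1 and H2-DMa. How these lengths were made is not given in the labels, so the order between genes may depend on them. In ICAM1-high libraries Cd74 was at 1968 ± 968, H2-Aa at 1111 ± 374, H2-Ab1 at 486 ± 306 and H2-DMa at 156 ± 76.0 CPM per kilobase (SD, n = 4), and H2-Eb1 lay just under H2-Aa. H2-DMb1 followed at 57.8 ± 32.3, H2-DMb2 at 28.7 ± 16.2, H2-Ob at 21.0 ± 13.3, Ciita at 6.32 ± 1.898 and H2-Oa at 2.32 ± 1.94 CPM per kilobase. The gap between neighbours was larger than the sum of their SDs only between Ciita and H2-Oa. In ICAM1-low libraries the 5 leading levels were 157 ± 85.4, 101 ± 36.0, 70.04 ± 17.9, 36.2 ± 18.4 and 9.34 ± 4.62 CPM per kilobase, and the only gap larger than the sum of the SDs was that between H2-Ab1 and H2-DMa. There, H2-Ob at 5.75 ± 6.96, H2-DMb1 at 4.69 ± 2.47, H2-Oa at 1.69 ± 3.27 and H2-DMb2 at 1.47 ± 1.12 CPM per kilobase came next, and Ciita was the lowest at 0.315 ± 0.188. Ciita mRNA was thus far below Cd74 and the classical chains in each fraction, while it was above H2-Oa in ICAM1-high libraries and within the sum of the SDs of H2-DMb2 in ICAM1-low libraries.

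Ratios between 2 class II genes within a library show whether the genes changed in proportion. They were taken of CPM + 0.5 and so depend little on how libraries are scaled, except where a gene is near the pseudocount, as Ciita and H2-DMb2 were in single ICAM1-low libraries. In none of 7 ratios did the fractions differ past the threshold (two-sided exact permutation test over 70 assignments, whose smallest p is 0.0286; p from 0.343 to 0.686, adjusted p from 0.6 to 0.686 over the 7 ratios, n = 4 against 4), and in all 7 the groups overlapped. A single ratio at that smallest p would not have passed after adjustment over the 7. The H2-Ab1 to H2-Aa ratio, between the chains of the same molecule, ran from 0.191 to 0.39 in ICAM1-high and from 0.187 to 0.296 in ICAM1-low libraries in CPM. Its log2 difference was 0.21, and the 16 differences between an ICAM1-high and an ICAM1-low library ran from -0.64 to 1.02, which is a 97.1% rank interval for a shift. For Cd74 to H2-Aa the difference was 0.24 (interval -0.65 to 1.03), for H2-Eb1 to H2-Aa it was 0.31 (-0.84 to 1.23) and for H2-DMa to H2-Aa it was 0.46 (-0.47 to 2.0). For H2-Ab1, Cd74 and H2-Eb1 to H2-Aa the log2 difference was below the SD between libraries in each group. For H2-DMa to H2-Aa it was above the SD of the ICAM1-high libraries (0.41) and below that of the ICAM1-low libraries (0.69). The intervals leave room for shifts of about 1 log2 unit or more, so proportional change was not established.

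The remaining ratios were looser. H2-DMb1 to H2-DMa had a log2 difference of -0.49 (interval -2.22 to 1.13). H2-DMb2 to H2-DMb1 ran from 0.185 to 1.93 in ICAM1-high and from 0.101 to 1.98 in ICAM1-low libraries, a wide range shared by the 2 fractions, with a log2 difference of 0.55 (interval -3.22 to 3.33). In both libraries numbered 5 it was low, at 0.185 and 0.168, while those numbered 1 were far apart, at 1.93 in ICAM1-high and 0.101 in ICAM1-low. Ciita to H2-Aa had a log2 difference of 0.66 (interval -1.11 to 2.63), and the sign of this one turned with a pseudocount of 2 in place of 0.5 CPM (-0.13).

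**Figure D3:**
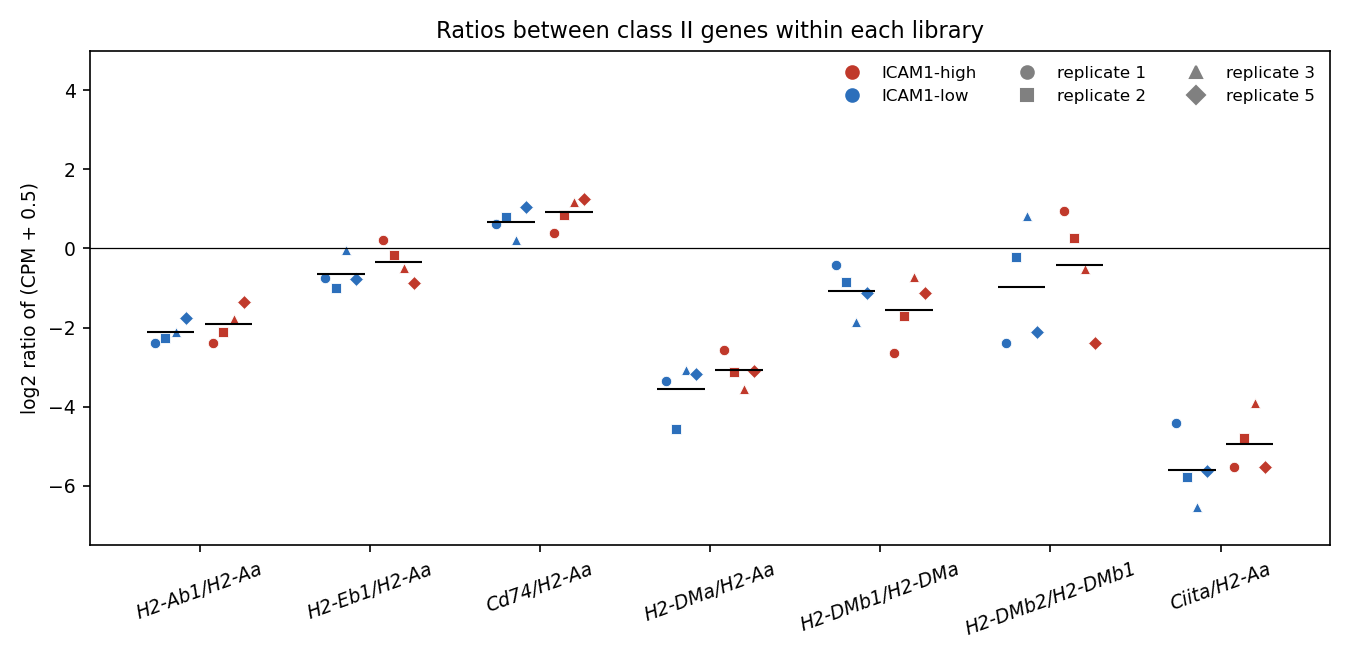
Log2 ratio of (CPM + 0.5) between 2 class II genes within each library (y axis), for 7 ratios (x axis), in ICAM1-low (blue) and ICAM1-high (red) libraries, with marker shape for the replicate number and a black line at the group mean. The groups overlap in all 7 ratios, and H2-DMb2/H2-DMb1 spans the widest range in each group.

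The other genes of the pathway were 35 listed genes with a row in the table, of which 34 were tested. Of these 4 rose and 1 fell, where 1.22% and 0.273% of all genes did, and 8 were higher at an unadjusted p under 0.05, where 7.96% of all genes were. Their median log2 fold change was 0.30. Among the 7 genes for the RFX, NFY and CREB factors that occupy the X and Y boxes, none passed (edgeR; 0 at an unadjusted p under 0.05, and 0 by DESeq2 and by limma-voom), and the median was 0.41. The smallest p of this list was that of Rfx5, the DNA-binding RFX subunit, at 0.879, 7.77, 8.78 and 8.36 CPM in the ICAM1-high and 1.28, 0.788, 4.68 and 1.84 CPM in the ICAM1-low libraries (log2 difference 1.59 ± 1.02, SE; edgeR adjusted p = 0.459). The factors that sit on the promoters thus showed no difference past the threshold while Ciita rose, but the difference between Ciita and these factors was not tested.

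Of 11 factors and signals upstream of Ciita, 1 rose and none fell (2 higher and 2 lower at an unadjusted p under 0.05), with a median of 0.26. The gene that rose was Irf8, an interferon regulatory factor of myeloid and B cells. It was at 600, 429, 359 and 297 CPM in the ICAM1-high libraries and at 33.0, 43.7, 40.5 and 10.5 CPM in the ICAM1-low libraries, with no overlap (log2 difference 3.72 ± 0.55, SE; edgeR adjusted p = 0.0125). Interferon-gamma is the classical inducer of Ciita, acting through its receptor, JAK kinases and, further down, IRF1. The genes of these did not pass the threshold: log2 fold changes were 0.26 for Ifngr1, 0.64 for Ifngr2, -0.67 for Jak1, -1.43 for Jak2 and -1.25 for Irf1 (edgeR adjusted p from 0.235 to 0.802). Irf1 was at 61.3 to 87.0 CPM in ICAM1-high and 96.0 to 370 CPM in ICAM1-low libraries, so that each ICAM1-high value was below each ICAM1-low value, which held for 3.89% of all genes tested. Irf4, a related factor of B cells and dendritic cells, lay the other way without overlap, at 5.80 to 32.4 CPM in ICAM1-high and 0 to 4.51 CPM in ICAM1-low libraries, and did not pass either (log2 difference 3.36 ± 1.23, SE; edgeR adjusted p = 0.204).

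Of 8 genes for antigen and invariant chain processing 3 rose and none fell, with a median of 1.80. They were Ifi30, the lysosomal thiol reductase GILT, Ctss, the cathepsin that makes the last cut of the invariant chain in many antigen-presenting cells, and Lgmn, the asparagine endopeptidase. Ifi30 was at 489, 297, 235 and 522 CPM in the ICAM1-high libraries and at 29.7, 44.0, 35.6 and 33.8 CPM in the ICAM1-low libraries (log2 difference 3.43 ± 0.45, SE; edgeR adjusted p = 0.00992). Ctss was at 3517, 1847, 1306 and 5682 CPM against 187, 251, 217 and 579 CPM (log2 difference 3.32 ± 0.64; edgeR adjusted p = 0.0347). Lgmn was at 461 to 1445 CPM against 123 to 151 CPM (log2 difference 2.58 ± 0.49; edgeR adjusted p = 0.0296). Also without overlap, and not past the threshold, were the cathepsins Ctsh, at 788 to 4233 against 157 to 518 CPM (log2 difference 2.62 ± 0.65; edgeR adjusted p = 0.0729), and Ctsb, at 3058 to 5600.0 against 1581 to 2227 CPM (1.01 ± 0.44; edgeR adjusted p = 0.279). In all, 5 of the 8 genes lay higher in every ICAM1-high library, against 7.51% of all genes tested. The related protease Ctsl, which takes the part of Ctss in thymic epithelium, differed by -0.03 ± 0.41 log2 units (edgeR adjusted p = 0.975). Of the 8 fits that left out 1 library, Ifi30 passed in 7, Ctss in 2 and Lgmn in 1, and none of the 3 passed without ICAM1-low replicate 1 (edgeR adjusted p from 0.0521 to 0.104).

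Of 8 genes for the turnover and membrane partners of class II, none rose and 1 fell. This was Cd9, a tetraspanin that associates with class II, at 74.4, 55.1, 97.0 and 75.7 CPM in ICAM1-high and 513, 188, 251 and 311 CPM in the ICAM1-low libraries (log2 difference -2.06 ± 0.45, SE; edgeR adjusted p = 0.0486). The call was lost with upper-quartile scaling (adjusted p = 0.054) and in 7 of the 8 fits that left out 1 library. Marchf1, the ubiquitin ligase that removes class II from the surface, had a log2 fold change of 1.54 ± 0.70 and did not pass (edgeR adjusted p = 0.295). H2-Eb2, a further class II beta chain gene, was not tested, being low: it stood at 2.66, 7.21, 0.0483 and 2.10 CPM in the ICAM1-high libraries and at 0, 0.237, 0 and 0 CPM in the ICAM1-low libraries.

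**Figure D4:**
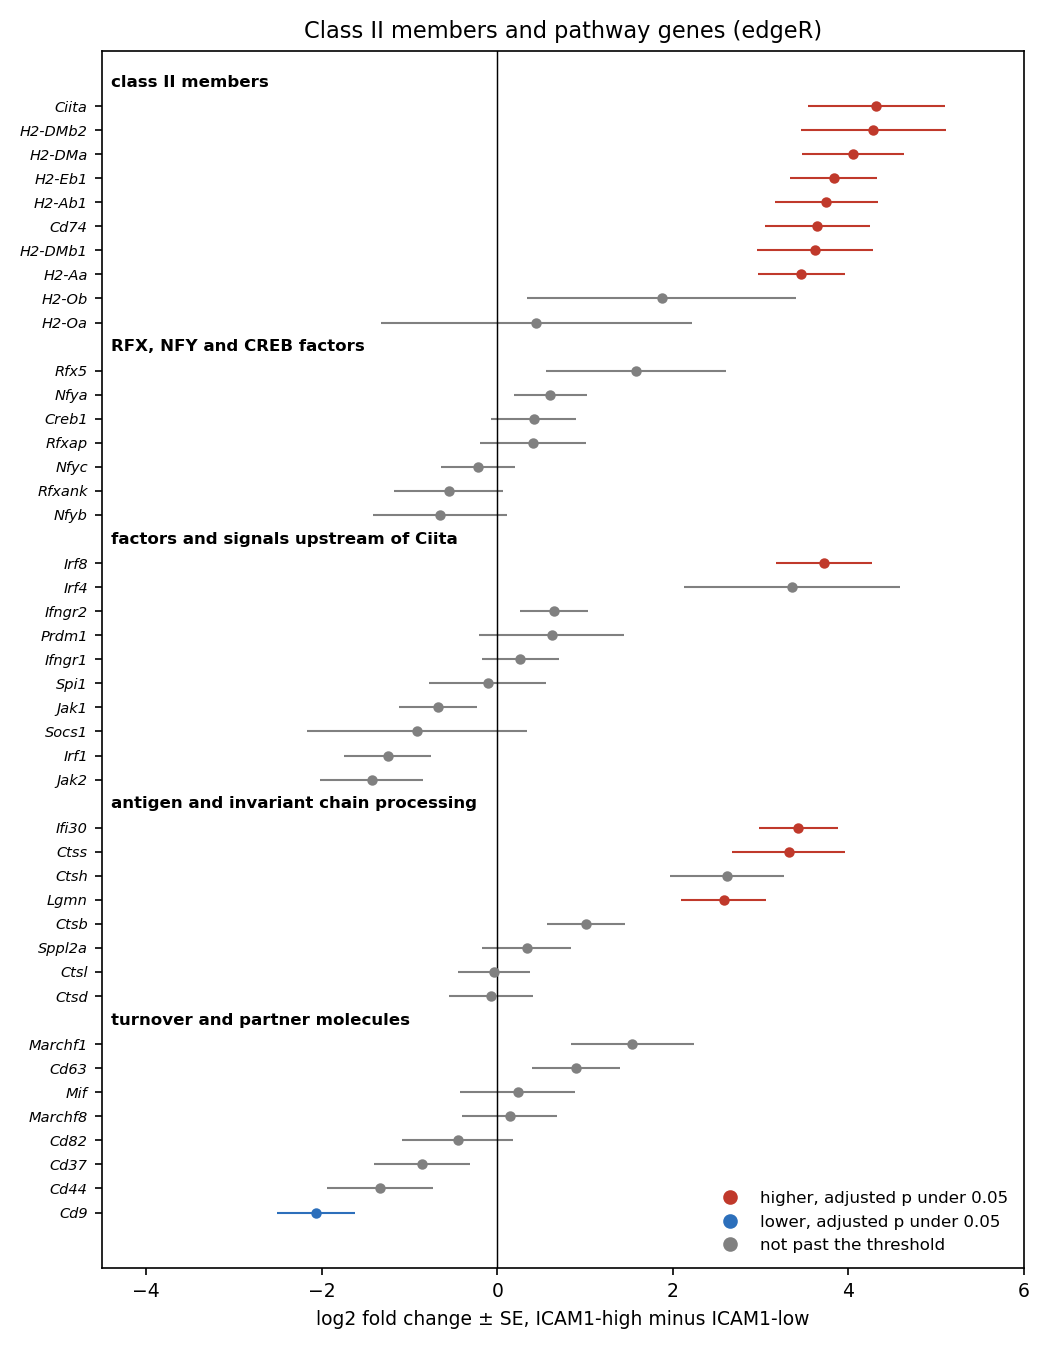
Log2 fold change of ICAM1-high against ICAM1-low libraries with its SE (x axis, edgeR, n = 4 against 4) for the 10 class II genes and pathway genes of 4 lists (y axis). Red genes were higher and blue genes lower past the threshold; 8 class II genes, 4 pathway genes on the higher side and Cd9 on the lower side are coloured.

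Outside the group, the genes whose pattern over the 8 libraries was most like the mean of H2-Aa, H2-Ab1 and H2-Eb1 were Ifi30, Pld4, Rgs10, Msr1 and Ctss, of 7507 genes compared. Likeness was the root mean square difference of log2(CPM + 0.5), each centred on its own mean over libraries, and it was 0.32, 0.36, 0.39, 0.40 and 0.42 log2 units in that order. Pld4 encodes an endolysosomal exonuclease, Rgs10 a regulator of G protein signalling and Msr1 the macrophage scavenger receptor. By the same measure Cd74 stood at 0.38, H2-DMa at 0.45, H2-DMb1 at 0.55, Ciita at 0.82, H2-DMb2 at 0.88, H2-Ob at 1.66 and H2-Oa at 1.78. The chains were thus nearer to some lysosomal and macrophage genes than to Ciita over these libraries. Ciita would still have stood at rank 86 beside the 7507 genes compared. Its value in ICAM1-low replicate 3, at 0.266 CPM, was under the pseudocount of 0.5 CPM, so its distance is poorly determined. This is a description of 8 libraries that fall into 2 groups, with no test.

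Summed markers of macrophages, dendritic cells and T and NK cells were higher in ICAM1-high libraries, as were the class II genes. Sums of the other lists overlapped or went the other way. The 14 macrophage markers summed to 5697 to 16300 CPM in ICAM1-high and 816 to 1174 CPM in ICAM1-low libraries. Of them 10 rose and none fell, where 1.22% and 0.273% of all genes tested did. All 14, with Adgre1, C1qa and Csf1r, were above 0 in every library. The 10 dendritic cell markers other than class II summed to 250 to 527 CPM in ICAM1-high and 28.2 to 195 CPM in ICAM1-low libraries, with Itgax, which macrophages also express, at 170 to 476 and 3.78 to 193 CPM. Of these 10, 7 were tested and none passed by edgeR, with 5 higher at an unadjusted p under 0.05, where 7.96% of all genes were. By DESeq2 2 were higher and by limma-voom 1, where 584 and 460 of all 13575 genes tested were. Of the defining dendritic cell markers, Xcr1 was at 1.13 to 10.7, Clec9a at 0.238 to 1.98 and Flt3 at 0.142 to 3.53 CPM in ICAM1-high libraries; Flt3 was listed at 0 in all 4 ICAM1-low libraries, Xcr1 in replicates 2, 3 and 5 and Clec9a in replicates 1 and 3. Zbtb46, a dendritic cell transcription factor, was present in each library and overlapped, at 2.99 to 15.7 CPM in ICAM1-high and 1.40 to 11.1 CPM in ICAM1-low libraries (log2 difference 0.48 ± 0.97, SE; edgeR adjusted p = 0.843). Siglech, Ccr7 and Itgax overlapped too. Without overlap, and higher in every ICAM1-high library, were Xcr1, Clec9a, Flt3, Cd209a, Batf3 and Clec10a. This pattern was held by 7.51% of all genes tested, but Clec9a, Flt3 and Cd209a failed the filter on low counts and were not tested. In ICAM1-high replicate 1 these were at 5, 3 and 5 counts, at or near the limit of detection. Batf3 was at 4.03 to 11.3 CPM in ICAM1-high and 0 to 2.0 CPM in ICAM1-low libraries. Clec10a was at 4.6 to 18.1 against 0 to 2.77 CPM, and Cd209a at 0.2375 to 2.08 against 0 to 0.1065 CPM.

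The 8 B cell markers summed to 552, 2152, 298 and 698 CPM in the ICAM1-high libraries and to 53.4, 426, 53.9 and 149 CPM in the ICAM1-low libraries, so the fractions overlapped. None passed by edgeR, with 4 higher at an unadjusted p under 0.05, where 7.96% of all genes were. By DESeq2 1 was higher and by limma-voom 1, where 584 and 460 of all 13575 genes tested were. Ms4a1, a defining B cell marker, was at 12.1 to 161 CPM in the ICAM1-high libraries, at 23.7 CPM in ICAM1-low replicate 2, the library with the highest H2-Oa, and at 0.614, 0.373 and 0.0877 CPM in replicates 1, 3 and 5 of that fraction. Pax5, the B cell transcription factor, was listed at 0 in ICAM1-low replicates 1 and 3. The libraries with H2-Oa and H2-Ob at 0, ICAM1-low replicates 1 and 3, had the lowest B cell sums. In other libraries the order differed: among ICAM1-low libraries H2-Ob was highest in replicate 5 (19.9 CPM), and among ICAM1-high libraries H2-Oa was highest in replicate 1 (4.99 CPM), while replicate 2 had the highest B cell sum in both fractions. The 9 T and NK cell markers summed to 76.3 to 315 CPM in ICAM1-high and 2.10 to 42.5 CPM in ICAM1-low libraries. Of them 1 of 7 tested rose (Cd4), where 1.22% of all genes tested did. Cd3e was at 0.0475 to 19.5 and 0 to 0.102 CPM. The 13 neutrophil markers went the other way, at 1504 to 4408 CPM in ICAM1-high and 6645 to 31100 CPM in ICAM1-low libraries. Of them 7 of 13 were lower past the threshold, where 0.273% of all genes tested were. Epithelial markers were at 8.17 to 24.5 and 0.319 to 68.5 CPM, with Epcam at 0.143 to 2.98 and 0 to 0.768 CPM, and the 6 eosinophil, mast cell and basophil markers at 15.9 to 46.9 and 63.2 to 153 CPM. The part of these cell types in the class II levels was not tested.

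**Figure D5:**
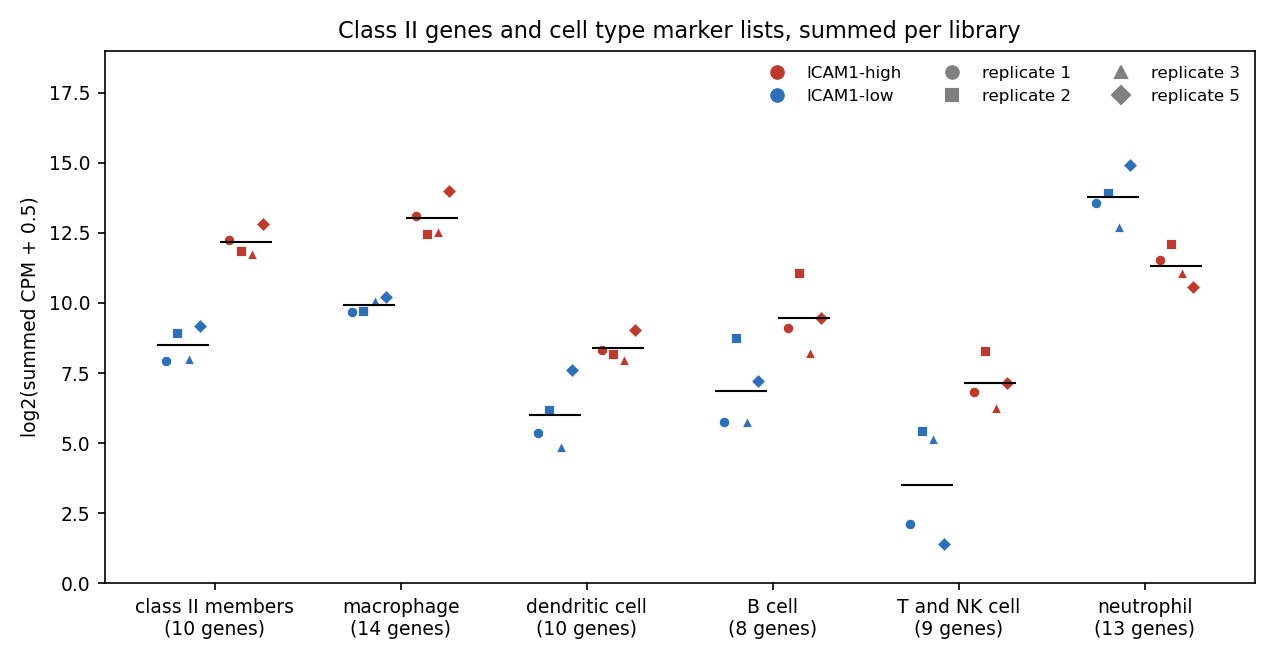
Summed CPM of the 10 class II genes and of 5 cell type marker lists, as log2(summed CPM + 0.5) (y axis), in ICAM1-low (blue) and ICAM1-high (red) libraries, with marker shape for the replicate number and a black line at the group mean. Class II and macrophage sums are higher in every ICAM1-high library, B cell sums overlap, and neutrophil sums are lower in every ICAM1-high library.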

How the data were processed

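RNA of 8 libraries from 150 pg input each was sequenced. The authors deposited estimated counts per gene, not whole numbers, made with Trim Galore 0.6.6 and Salmon 1.9.0 on GRCm39 per the submitters' processing notes; the annotation used is not given in the sources used here, nor are settings. The deposited table also holds another column, headed length. It was taken here as gene length in bases, and how it was made is not given. Repeated identifiers with identical values were kept once (25669 rows, 25572 kept). Counts were rounded, filtered by filterByExpr (13575 kept), TMM-scaled and tested for group with edgeR 4.0.16 (R 4.3.3; quasi-likelihood, robust), with Benjamini-Hochberg adjustment over all genes tested and a threshold of 0.05. SE is the log2 fold change divided by the square root of F. The test was also run on simulated counts, drawn independently with dispersions taken from these libraries. That run cannot speak to cell mixture or to libraries that are not independent. Alternatives were other scalings, DESeq2 1.42.0, limma-voom (limma 3.58.1), other filters, a replicate term and leaving out libraries.

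The members and the gene lists were chosen with earlier results of these data known. Named were the 10 members, of each pathway list the genes past the threshold or that with the smallest p, and the 5 genes most like the classical chains whose average log2 CPM reached 4, predicted genes, pseudogenes and receptor segments left out. Interferon-gamma pathway genes, Ctsl, Marchf1 and H2-Eb2 are further list members named after their values were seen. Ratios used a pseudocount of 0.5 CPM. Sequences are from RefSeq (GRCm38.p6), matched by symbol. A longer X box word, with 2 more letters, had matched the same member sites. No molecular identifiers are named in the labels, so reads may not be independent molecules. Some list members counted above are not reported here by name.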

Additional observations from a re-analysis of the deposited data

Results flagged for a closer look

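Of the values of each gene in each group of 4 libraries, and of the 7 ratios likewise, 34 sets were searched for a library far from its fellows, meaning that its gap to the nearest other, as a share of the whole range, exceeded Dixon's critical value for 4 values. Chance gives about 1 in 20, and 4 were found. In ICAM1-high replicate 5, H2-Ab1 was at 622 CPM (gap 0.922 of the range), Cd74 at 3760 CPM (0.921) and H2-DMb1 at 85.9 CPM (0.84), while H2-Aa at 1595 CPM and H2-Eb1 at 870 CPM in the same library were not so set apart. In ICAM1-low replicate 2, H2-Oa was at 6.86 CPM (0.974). The summed macrophage markers were highest in ICAM1-high replicate 5 (16300 CPM), and the summed B cell markers of the ICAM1-low libraries were highest in replicate 2 (426 CPM); their part in these values was not tested.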

How the results depend on the processing

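The number of class II genes that rose stayed at 8 under RLE, upper-quartile and unscaled library sizes, DESeq2, limma-voom, no filter, the filter of 10 CPM in at least 4 libraries, the replicate block and without both libraries numbered 5. It was 7 with the H2-DMb paralogs summed, and 0 to 8 when 1 library was left out. The 8 genes kept their sign in 143 of 143 such fits, which share most libraries. H2-Oa ran from -0.25 without ICAM1-high replicate 1 to 5.42 without ICAM1-low replicate 2. The all-gene median shifted by 0.13 log2 units with upper-quartile scaling and by 0.24 with unscaled libraries. Over all genes, 166 higher and 37 lower became 258 higher with unscaled libraries, 584 and 642 with DESeq2, 460 and 349 with limma-voom, 280 and 261 with the replicate block, 120 lower without a filter, 61 lower with the stricter filter and 190 lower without both libraries numbered 5; leaving out 1 library gave 4 to 337 higher and 0 to 241 lower. Pathway genes were 0 to 4 higher and 0 to 1 lower with 1 library left out, and Cd9 was lost, leaving 0 lower, with upper-quartile scaling (edgeR adjusted p = 0.054), unscaled libraries (0.0654) and without both libraries numbered 5 (0.0506). The cause was not tested. The log2 difference of Ciita/H2-Aa turned to -0.13 with a pseudocount of 2 CPM. With so few libraries the ratio tests had little or no room to pass, so their alternatives say nothing of stability.

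The shared replicate numbers are not explained in the labels. Same-numbered libraries' deviations from their group means correlated at -0.146, 0.12, 0.154 and 0.38 across genes for numbers 1, 2, 3 and 5, and not every ICAM1-high library correlated best with its own number. The replicate block changed no call among the 10 class II genes (8 higher) or the pathway genes (4 higher, 1 lower). Depth limits H2-Oa, Ciita and H2-DMb2 in ICAM1-low libraries, where some values rest on under 10 counts.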
